A study of Rattus norvegicus with 5 samples.

Results

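The TNF and NF-kB feedback genes are a set of 9 rat genes of the pathway through which tumour necrosis factor activates the transcription factor NF-kB: Tnf, Nfkbia, Tnfaip3, Nfkb1, Nfkb2, Relb, Birc3, Icam1 and Il33. They were found on the arrays by the RefSeq accession of each probe, and 6 of the 9 had a probe that such an accession named, among 15442 genes named in all: Tnf, Nfkbia, Nfkb2, Birc3, Icam1 and Il33. Tnfaip3, Nfkb1 and Relb had no probe named in this way and were not analysed here. Each of the 6 had 1 probe, which was well above background on all 5 arrays, so none entered through 1 group alone.

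The RNA came from tumours that grew from C6-L cells, a rat glioma line, in BALB/c nu/nu nude mice whose labelled age was 6 weeks. The groups were 3 metastatic lung nodules and 1 primary tumour that had been irradiated, all collected 6 weeks after γ-irradiation, and 1 primary tumour without irradiation, collected 6 weeks after the xenograft. Each sample was hybridised to 1 single-colour Agilent rat expression array. Nude mice lack a thymus and so most mature T cells, but keep macrophages, neutrophils, NK cells and B cells, and mouse RNA was read here through rat probes. Whether the nodules came from different mice is not given. The p-values therefore reflect the variation of these 3 samples alone, which may be technical, and a primary with 1 array was assumed to vary as the nodules do. The number of arrays limits the precision of every value. All arrays were on 1 slide, where nodules and primaries occupied different rows, so that row and tissue cannot be told apart.

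NF-kB is a family of paired transcription factors that resting cells hold in the cytoplasm bound to inhibitors of the IkB family. When TNF binds its receptor, adaptor proteins and ubiquitin ligases gather a kinase complex that marks IkB for destruction, and the freed factor enters the nucleus. Among the genes it then turns on are its own inhibitors, such as Nfkbia and Tnfaip3, survival genes such as Birc3, and Icam1, the adhesion molecule that lets leukocytes stick to a cell. A slower, non-canonical branch works through the product of Nfkb2.

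NF-kB binds short DNA sites called kappaB sites, and the promoters of Nfkbia, Nfkb2 and Icam1 are shown because each holds such a sequence, while Icam1 was low in the nodules and the other 2 were not. The windows cover 250 bases before and 50 after the gene start in RefSeq (assembly GRCr8) and are written 5′ to 3′ on the strand of the gene. Capitals mark matches to GGANTTTCC, a common form of the site, on either strand.
Nfkbia (chr6:78597023-78597322, minus strand): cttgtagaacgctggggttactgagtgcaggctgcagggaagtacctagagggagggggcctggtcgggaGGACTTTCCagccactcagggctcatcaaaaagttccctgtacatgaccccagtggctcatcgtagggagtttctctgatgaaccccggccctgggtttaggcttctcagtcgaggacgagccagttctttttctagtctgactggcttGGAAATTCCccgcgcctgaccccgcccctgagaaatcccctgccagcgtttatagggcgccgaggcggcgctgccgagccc
Nfkb2 (chr1:255108124-255108423, plus strand): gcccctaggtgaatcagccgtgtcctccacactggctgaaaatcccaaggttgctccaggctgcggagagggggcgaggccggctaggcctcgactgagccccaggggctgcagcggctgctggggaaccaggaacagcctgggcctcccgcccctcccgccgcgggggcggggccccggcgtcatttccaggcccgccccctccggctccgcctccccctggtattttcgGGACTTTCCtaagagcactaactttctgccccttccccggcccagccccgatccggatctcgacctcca
Icam1 (chr8:27829595-27829894, plus strand): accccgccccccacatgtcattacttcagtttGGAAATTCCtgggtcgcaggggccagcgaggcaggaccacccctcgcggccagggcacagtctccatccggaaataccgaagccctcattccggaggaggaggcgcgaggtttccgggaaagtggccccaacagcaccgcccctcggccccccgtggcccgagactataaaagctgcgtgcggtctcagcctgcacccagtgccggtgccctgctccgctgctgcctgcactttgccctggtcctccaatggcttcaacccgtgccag
Of the 6 measured genes 5 had a promoter in the table, Birc3 being the one without. GGANTTTCC was found in 3 of them: in Nfkbia, with matches starting 180 and 31 bases before the gene start, in Nfkb2, 19 bases before it, and in Icam1, 218 bases before it. It was present in 1.28% of all 33469 promoter windows. The motif was shortened after longer forms had been searched, so these counts do not measure enrichment. The windows of Tnf and Il33 did not hold these letters. A match is a description of the sequence and does not show that the factor bound there.

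In the lung nodules Icam1 RNA was far lower than in either primary tumour. Tnf and Il33, the cytokines of the set, were highest in the irradiated primary. Nfkbia and Nfkb2 each stayed within 1 log2 unit over all 5 samples, and Birc3 was highest in the non-irradiated primary. Levels are given as the log2 of the scanner's background-corrected signal minus the 75th percentile of the array, so that 0 is the level of that percentile, and they are compared only between arrays and not between genes, whose probes differ in brightness. In tissue RNA, fewer cells that express a gene and less of its RNA per cell cannot be told apart.

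**Figure D1:**
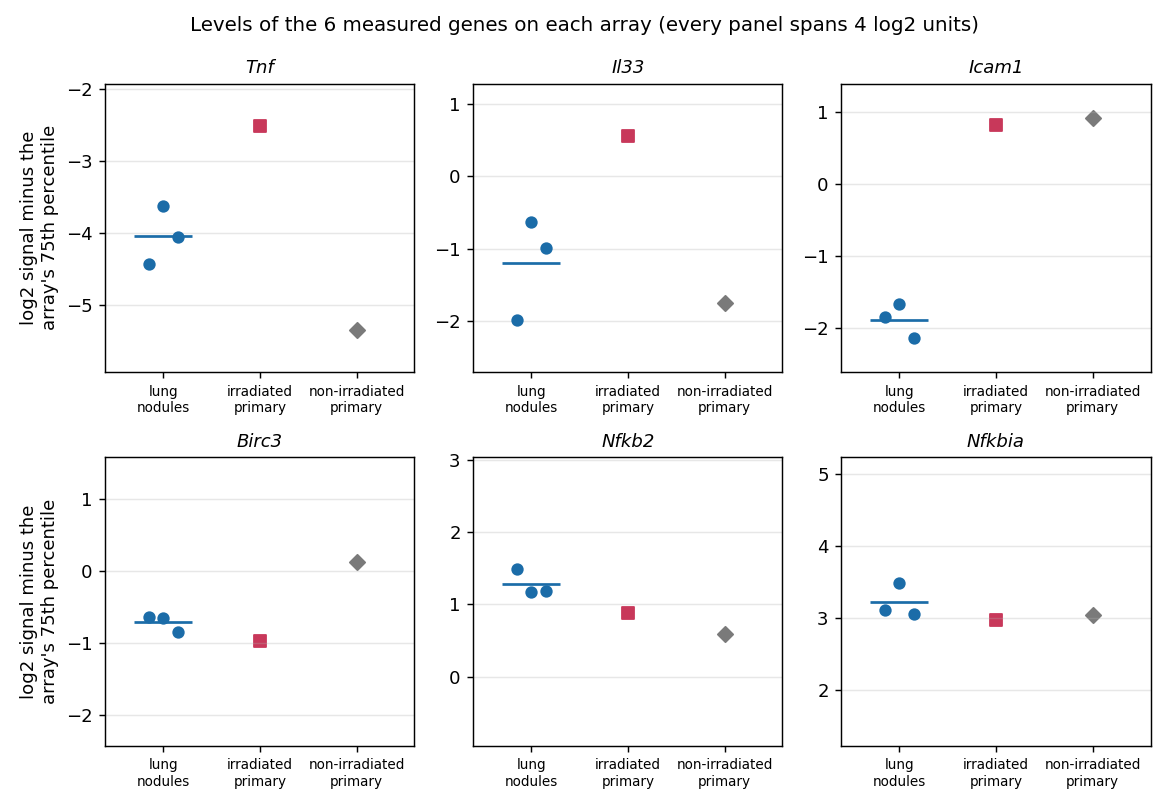
Scaled log2 level of each measured gene (vertical axis, every panel spanning 4 log2 units) in the 3 lung nodules (circles, with a line at their mean), the irradiated primary (square) and the non-irradiated primary (diamond). Icam1 lay between -2.13 and -1.67 in the nodules, below both primaries, while Tnf and Il33 were highest in the irradiated primary.

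Tnf encodes tumour necrosis factor itself, made above all by macrophages and other immune cells. Its level was -4.43, -3.62 and -4.06 in nodules 1, 2 and 3, -2.51 in the irradiated primary and -5.34 in the non-irradiated primary. The irradiated primary was thus the highest sample, the non-irradiated primary the lowest, and the 3 nodules lay between them without overlap. The log2 difference of the nodules was -1.53 from the irradiated primary (SE 0.38, 95% interval -2.51 to -0.55, limma adjusted p = 0.111) and 1.30 from the non-irradiated primary (SE 0.38, 0.32 to 2.29, adjusted p = 0.0755), and neither passed the threshold of 0.05. Without nodule 1 both did, at -1.33 (adjusted p = 0.0268) and 1.50 (adjusted p = 0.00989). Neither passed without nodule 2 or without nodule 3. Between the primaries, with 1 array each and no test, Tnf was 7.12-fold higher in the irradiated one. The signal in the non-irradiated primary was dim, since the lowest well-above-background level of that array was -6.12. With another background correction, the normexp model, the difference between the primaries was 1.50 on the log2 scale in place of 2.83, and the nodules differed by -1.02 from the irradiated primary (limma adjusted p = 0.0808) and by 0.49 from the non-irradiated primary (adjusted p = 0.208). Macrophage markers summed to 44.4 to 50.6 in the nodules, 54.0 in the irradiated and 25.1 in the non-irradiated primary, in units of the 75th percentile signal, a sum made up mostly of the complement genes C1qa and C1qb. Other macrophage markers had another order: Cd163 averaged -3.98 in the nodules and stood at -2.59 in the irradiated and -1.44 in the non-irradiated primary, and Cd68 and Mrc1 were lowest in the nodules and nearly equal in the primaries. The part of these markers in the level of Tnf was not tested.

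Il33 encodes interleukin-33, a nuclear cytokine of the IL-1 family that damaged barrier and stromal cells release. Its level was -1.99, -0.63 and -0.997 in nodules 1, 2 and 3, 0.56 in the irradiated primary and -1.76 in the non-irradiated primary. The irradiated primary was again the highest sample, but here the nodules overlapped the non-irradiated primary, with nodule 1 below it and nodules 2 and 3 above. Il33 also varied more between the nodules than any other measured gene of the set, over 1.36 log2 units, against 0.21 to 0.82 for the rest. The log2 difference of the nodules from the irradiated primary was -1.77 (SE 0.55, 95% interval -3.19 to -0.34, limma adjusted p = 0.164), and from the non-irradiated primary it was 0.56 (SE 0.55, -0.87 to 1.98, adjusted p = 0.509). Without nodule 1 both differences passed, at -1.37 (adjusted p = 0.00639) and 0.95 (adjusted p = 0.0119), whereas without nodule 2 neither did, at -2.05 (adjusted p = 0.226) and 0.27 (adjusted p = 0.765). Between the primaries Il33 was 5.00-fold higher in the irradiated one, untested. Nodule 1 was also the nodule with the highest summed alveolar and airway markers, at 46.2, with 15.02 in nodule 2 and 0.313 in nodule 3, and their part in the level of Il33 was not tested.

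Both chains of the IL-33 receptor were measured too. Il1rl1, which encodes the receptor ST2, stood at 1.65, 1.13 and 1.79 in nodules 1, 2 and 3, 2.47 in the irradiated primary and 0.31 in the non-irradiated primary. Il1rap, the accessory chain that ST2 shares with other receptors of the IL-1 family, stood at -3.76, -3.43 and -3.54 in the nodules, -3.35 in the irradiated primary and -4.73 in the non-irradiated primary. For both genes every nodule lay above the non-irradiated primary and below the irradiated one. They rose in the nodules against the non-irradiated primary, Il1rl1 by 1.22 (limma adjusted p = 0.0481) and Il1rap by 1.16 (adjusted p = 0.0403), while against the irradiated primary the differences of -0.94 and -0.23 did not pass (adjusted p = 0.156 and 0.642). With the mean of all its probes the difference of Il1rl1 was 1.83, and with normexp that of Il1rap was 0.58. The rise of Il1rl1 was lost in 5 of 8 other processing settings and that of Il1rap in 3, and both were lost without nodule 2 (adjusted p = 0.0642 and 0.157) and without nodule 3 (adjusted p = 0.0983 and 0.0961). In the irradiated primary Il1rl1 was 4.47-fold and Il1rap 2.62-fold higher than in the non-irradiated primary, with no test.

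**Figure D2:**
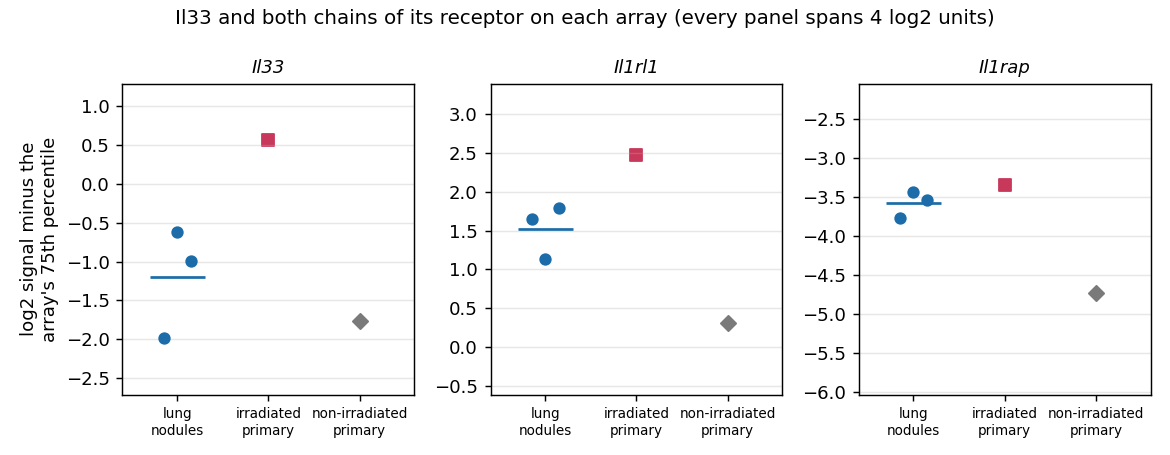
Scaled log2 level of Il33 and of the receptor genes Il1rl1 and Il1rap (vertical axis, 4 log2 units in every panel) in the lung nodules (circles, line at the mean), the irradiated primary (square) and the non-irradiated primary (diamond). In all panels the irradiated primary is the highest sample, and nodule 1 is the lowest sample for Il33 only.

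Nfkbia encodes IkB-alpha, the inhibitor that NF-kB rebuilds after each activation. Its level was 3.11, 3.49 and 3.06 in nodules 1, 2 and 3, 2.97 in the irradiated primary and 3.05 in the non-irradiated primary. The nodules lay above both primaries, nodule 3 only barely, and all 5 samples fell within 0.52 log2 units. The log2 difference of the nodules was 0.25 from the irradiated primary (SE 0.20, 95% interval -0.28 to 0.79, limma adjusted p = 0.530) and 0.17 from the non-irradiated primary (SE 0.20, -0.36 to 0.70, adjusted p = 0.585). Neither passed, and the intervals leave room for a change of less than 2-fold in the nodules either way. The irradiated primary was at 0.946 times the signal of the non-irradiated primary.

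Nfkb2 encodes p100, which is both an inhibitor and, once trimmed to p52, the DNA-binding subunit of the non-canonical branch. Its level was 1.49, 1.17 and 1.18 in nodules 1, 2 and 3, 0.88 in the irradiated primary and 0.59 in the non-irradiated primary. All nodules lay above both primaries. The log2 difference was 0.40 from the irradiated primary (SE 0.18, 95% interval -0.06 to 0.86, limma adjusted p = 0.282) and 0.69 from the non-irradiated primary (SE 0.18, 0.23 to 1.15, adjusted p = 0.0589), so neither passed. Without nodule 1 the second was 0.58 and passed (adjusted p = 0.0131). That difference did not pass without nodule 2 or without nodule 3. Between the primaries the irradiated one was 1.22-fold higher.

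Birc3 encodes cIAP2, a ubiquitin ligase that TNF receptor complexes recruit and that protects cells from TNF-induced death. Its level was -0.64, -0.65 and -0.84 in nodules 1, 2 and 3, -0.97 in the irradiated primary and 0.12 in the non-irradiated primary. Nodules and irradiated primary lay close together and the non-irradiated primary stood above them. Birc3 fell in the nodules against the non-irradiated primary, by a log2 difference of -0.83 (SE 0.16, 95% interval -1.25 to -0.42, limma adjusted p = 0.0324). This call was lost without nodule 2 (adjusted p = 0.112), without nodule 3 (adjusted p = 0.0878) and with a variance model that has no intensity trend (adjusted p = 0.0518). Against the irradiated primary the difference was 0.26 (SE 0.16, -0.16 to 0.68, adjusted p = 0.414). Between the primaries Birc3 was 2.13-fold higher in the non-irradiated one. Its relative Birc2, the ligase cIAP1, had a probe of its own and differed by -0.06 from the irradiated and 0.03 from the non-irradiated primary (adjusted p = 0.861 and 0.903).

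Icam1 encodes the intercellular adhesion molecule that integrins of leukocytes bind, and it showed the largest difference between nodules and primaries in the set. Its level was -1.84, -1.67 and -2.13 in nodules 1, 2 and 3, 0.82 in the irradiated primary and 0.92 in the non-irradiated primary. The primaries were nearly alike, and every nodule lay more than 2 log2 units below both. Icam1 fell by 2.70 against the irradiated primary (SE 0.22, 95% interval -3.28 to -2.12, limma adjusted p = 0.0139) and by 2.80 against the non-irradiated primary (SE 0.22, -3.38 to -2.22, adjusted p = 0.0100). The signal was thus 6.48-fold higher in the irradiated and 6.96-fold higher in the non-irradiated primary than in the nodules. Both calls held in all 8 other processing settings and were lost without nodule 2 (adjusted p = 0.0709 and 0.0565), where the differences were -2.80 and -2.91. With 1 probe bright on every array, the log2 difference itself cannot change under another filter, probe rule or variance model. The comparisons share the nodules, so their likeness is no independent support.

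Cells that commonly carry Icam1 were measured beside it through their markers. Of 6 endothelial markers with a probe 3 were well above background in each sample, Tek, Tie1 and Cldn5 being dim on all arrays, and their sum was 1.26 to 3.79 in the nodules, 0.963 in the irradiated and 0.768 in the non-irradiated primary. None of the 3 endothelial genes was called in either comparison by limma. Of 10 macrophage markers tested, Cd68 (log2 difference -1.12, limma adjusted p = 0.0338) and Cd163 (-2.54, adjusted p = 0.0399) fell against the non-irradiated primary and, like Icam1, were lower in every nodule than in both primaries, while 5 others rose against the non-irradiated primary. The part of these genes in the difference of Icam1 was not tested. T and NK cell markers summed to 0.284 to 0.411 in the nodules, 0.809 in the irradiated and 0.438 in the non-irradiated primary, and of 9 markers Cd3e, Cd8a and Cd4 were dim on every array. Of 6 tested, Cd7 fell in both comparisons (log2 differences -2.88 and -1.62, limma adjusted p = 0.0111 and 0.0161). Cd2, well above background in the irradiated primary alone, fell against that primary. Cd2 thus entered the test only through the sample where it was high, and its call adds no support to a fall of these markers. Its signal was not well above background in any nodule, so the size of its fall is not given. The other 4 were not called, and the part of these genes in the difference of Icam1 was not tested. Skeletal muscle markers moved in the same direction as Icam1, with sums of 4.88 to 5.37 in the nodules, 131 in the irradiated and 29.5 in the non-irradiated primary, and their part in the difference was not tested. Glial markers were present in part: Vim, Nes, Sox2 and S100b were measured, and Gfap and Olig2 were dim on all arrays. Nes fell against the non-irradiated primary (log2 difference -2.43, limma adjusted p = 0.0364) and, like Icam1, was lower in every nodule than in both primaries. The other 3 were not called there, Vim differing by 0.91 (adjusted p = 0.119), and none of the 4 was called against the irradiated primary. Their part in the difference of Icam1 was not tested.

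**Figure D3:**
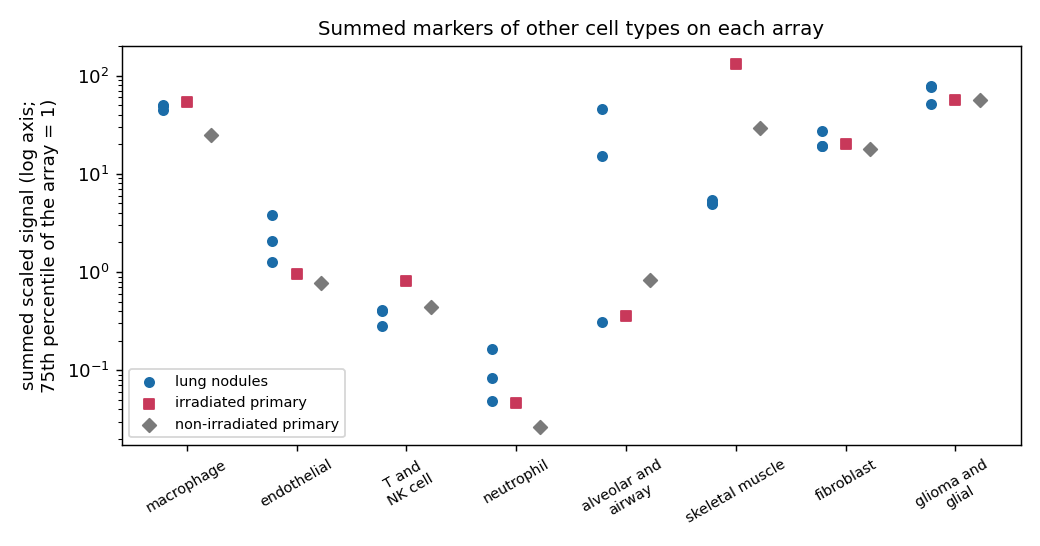
Summed signal of 8 marker lists of other cell types on each array (vertical log axis, in units of the array's 75th percentile signal) in lung nodules (circles), the irradiated primary (squares) and the non-irradiated primary (diamonds). Skeletal muscle markers sum to 131 in the irradiated primary against 4.88 to 5.37 in the nodules, and alveolar and airway markers range from 0.313 to 46.2 among the nodules.

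Over the set, 1 of the 6 measured genes (Icam1) fell and 0 rose in the nodules against the irradiated primary by limma, beside 3.72% of 18913 features called either way (2.81% lower and 0.909% higher), and 3 of 6 had an unadjusted p under 0.05. Against the non-irradiated primary 2 of 6 (Icam1 and Birc3) fell and 0 rose, beside 18.6% of features called (8.85% lower and 9.72% higher), and 4 of 6 had an unadjusted p under 0.05. All nodules lay below both primaries for 1 gene and above both for 2, beside 19.2% and 22.3% of all features. Between the primaries Tnf and Il33 were at least 2-fold higher and Birc3 at least 2-fold lower in the irradiated one, which is 3 of 6, beside 16.5% of 18448 features (9.31% higher and 7.14% lower). The counts rest on the choice of nodules: against the irradiated primary 3 genes were called without nodule 1 and 0 without nodule 2, and against the non-irradiated primary 5 without nodule 1, 0 without nodule 2 and 1 without nodule 3. Without nodule 2, 3 and 4 of the 6 genes still had an unadjusted p under 0.05.

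**Figure D4:**
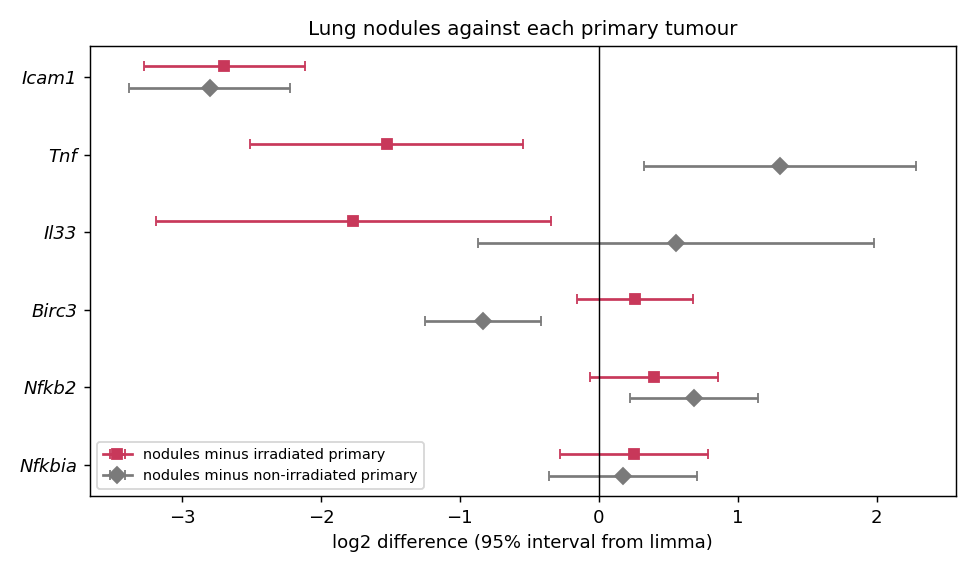
Log2 difference of the lung nodules from the irradiated primary (squares) and from the non-irradiated primary (diamonds) for the 6 measured genes, with 95% intervals from limma. The intervals of Icam1 lie at or below -2.12, those of Tnf lie on opposite sides of 0, and both intervals of Nfkbia span 0.

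The other genes of the pathway were taken from 8 lists of 104 genes, of which 89 had a named probe and 76 were bright enough to be tested. Against the irradiated primary 5 fell, 1 rose and 70 did not pass, with a median log2 difference of -0.13 beside 0.03 over all features. The 5 that fell are 6.58% of the tested genes, beside 2.81% of all features. Cxcl2, 1 of these 5, entered the test only through the irradiated primary, where it was high. In the comparison with the non-irradiated primary 9 fell, 9 rose and 58 did not pass, with a median of -0.05 beside 0.04. That is 11.8% each way, close to the 8.85% lower and 9.72% higher over all features. Between the primaries 13 of 74 were at least 2-fold higher in the irradiated tumour and 4 at least 2-fold lower, beside 9.31% and 7.14% of all features. Cd83, Cxcl2 and Ltb, counted among these 13, entered this comparison only through the irradiated primary, where they were high.

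Receptors, adaptors and kinases near the membrane gave 1 call against the irradiated primary. Of 13 TNF receptor and adaptor genes 0 passed there (median -0.06; none had an unadjusted p under 0.05 except Traf2), and of 8 kinase genes 1 rose (median 0.29). That gene was Tab1, a partner of the kinase TAK1, which rose by 1.02 (limma adjusted p = 0.0281). From the adaptor list 2 genes fell and 1 rose against the non-irradiated primary (median 0.03). Cflar, which encodes the caspase-8 inhibitor c-FLIP, fell by 3.25 (adjusted p = 0.00996), the kinase Ripk1 fell by 0.67 (adjusted p = 0.0394), and the adaptor Traf2 rose by 0.85 (adjusted p = 0.0274). Cflar stood at -1.56, -1.01 and -1.19 in the nodules, -0.71 in the irradiated and 1.99 in the non-irradiated primary, so that the non-irradiated primary alone was high, and with the mean of all its probes the difference was -2.15. Among the kinases Ikbkb, the catalytic subunit IKK-beta, fell by 0.67 (adjusted p = 0.0352), with a list median of 0.01. Ikbkb was also at 0.413 times, and Cflar at 0.153 times, the signal of the non-irradiated primary in the irradiated one.

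The inhibitors and subunits that work beside Nfkbia and Nfkb2 gave few calls. Of 4 other Rel and IkB genes (Rela, Nfkbib, Nfkbie and Bcl3) 0 passed in either comparison, with medians of -0.03 and -0.14, and Rela had an unadjusted p of 0.0210 against the irradiated primary. Of 8 other feedback inhibitors 0 passed against the irradiated primary (median -0.16), where Traf1 and Tax1bp1 had unadjusted p-values of 0.0140 and 0.00807. Set against the non-irradiated primary 1 of these 8 rose (median -0.09), the deubiquitinase Otud7b, by 0.92 (limma adjusted p = 0.0294). That call turned to -0.10 with the normexp background correction. Of 6 non-canonical inputs 0 passed against the irradiated primary (median 0.02), and Cd40 and Tnfrsf12a had unadjusted p-values of 0.0442 and 0.00351. The receptor Cd40 rose against the non-irradiated primary by 1.37 (adjusted p = 0.0470) and the TWEAK receptor Tnfrsf12a fell by 0.73 (adjusted p = 0.0321), with a list median of 0.17. With normexp the difference of Cd40 was 0.40 and did not pass (adjusted p = 0.235). Cd40 was 4.67-fold higher in the irradiated than in the non-irradiated primary. Ltb, a ligand of the non-canonical branch, was 2.86-fold higher, a ratio to a dim signal that was not well above background in the non-irradiated one.

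In the list of IL-33 and toll-like receptor genes, 1 of 9 fell against the irradiated primary (median -0.17), and 2 fell and 3 rose against the non-irradiated primary (median 0.27). Tlr3, a sensor of double-stranded RNA, fell in both, by 2.36 (limma adjusted p = 0.0327) and by 2.24 (adjusted p = 0.0165). With normexp these differences were -1.27 and -1.21 and still passed (adjusted p = 0.0171 and 0.0104). The level of Tlr3 was -5.12, -4.60 and -4.81 in the nodules, -2.48 in the irradiated and -2.60 in the non-irradiated primary. Like Icam1, it was low in every nodule and nearly equal in the primaries. The adaptor Traf6 fell by 1.77 against the non-irradiated primary (adjusted p = 0.0151), and Tlr2, a sensor of bacterial lipoproteins, rose by 1.49 (adjusted p = 0.0138), beside Il1rl1 and Il1rap. In the irradiated primary Tlr2 was 2.60-fold higher and Traf6 at 0.330 times the signal of the non-irradiated primary.

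Of 24 other NF-kB target genes tested, 4 fell and 20 did not pass in the nodules against the irradiated primary, with a median of -0.47. The chemokine genes among them were Cxcl1 (log2 difference -3.61), Cxcl10 (-2.47) and Ccl2 (-2.09), at limma adjusted p-values of 0.0111, 0.0130 and 0.0329, and Cxcl2, which was not well above background in any nodule and at least 5.53-fold lower there. Cxcl2 was well above background in the irradiated primary alone. It thus entered the test through the sample where it was high, and its call adds no support to the count. With normexp the log2 difference of Cxcl2 was -0.86 and did not pass (adjusted p = 0.0642). Against the non-irradiated primary 3 rose, 3 fell and 18 did not pass (median -0.15). The largest rise was that of Cd83, a surface protein of activated antigen-presenting cells, with Cxcl1 up by 1.45 and the macrophage growth factor Csf1 up by 1.44 (adjusted p = 0.00761, 0.0286 and 0.0218). Cd83 was 24.4-fold higher in the nodules, a ratio to a dim signal that was not well above background in the non-irradiated primary. With normexp the log2 difference of Cd83 was 2.74 in place of 4.61 and still passed (adjusted p = 0.00365), so its fold depends on the background correction. Ier3, Cxcl10 and Ninj1 fell by 1.35, 0.90 and 0.60 (adjusted p = 0.0328, 0.0422 and 0.0430). In the irradiated primary 8 of 23 targets were at least 2-fold higher than in the non-irradiated one and 1 was lower. Of all features 9.31% were higher and 7.14% lower in this way. Cd83 and Cxcl2, counted among these 8, were well above background in the irradiated but not in the non-irradiated primary. They entered this comparison only through the sample where they were high and add no support to the count. Among the higher ones were Cxcl1 (33.4-fold), Cd83 (20.1-fold, over the dim signal), Plau (4.31-fold), Csf1 (4.06-fold), Cxcl2 (at least 3.87-fold) and Cxcl10 (2.97-fold). Mmp9 was 3.34-fold higher in the non-irradiated one. Macrophage markers, several of which rose against the non-irradiated primary as well (5 of 10 rose and 2 fell), were 54.0 in sum in the irradiated and 25.1 in the non-irradiated primary, and their part in these differences was not tested.

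Of 4 genes whose products bind or anchor ICAM-1, 0 passed in either comparison (medians -0.13 and 0.02, smallest unadjusted p 0.0917): the integrin chains Itgam and Itgb2 and the membrane linkers Ezr and Msn. Itgal and Icam2 were dim on all arrays. In other processing settings 4 of the 6 calls against the irradiated primary were lost at least once: Cxcl2 in 3 settings of 6, and of 8 settings Tlr3 in 2 and Tab1 and Ccl2 in 1 each. Against the non-irradiated primary 10 of 18 were lost at least once. Of 8 settings these were lost in 5 for Il1rl1, in 3 each for Il1rap, Ripk1, Cd40, Cxcl10 and Ninj1, in 2 each for Ikbkb, Tnfrsf12a and Ier3, and in 1 for Otud7b. Without nodule 2 none of the 24 calls in these lists held (adjusted p from 0.0513 to 0.157), and without nodule 3 the calls were lost for 4 of 6 against the irradiated and 16 of 18 against the non-irradiated primary.

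**Figure D5:**
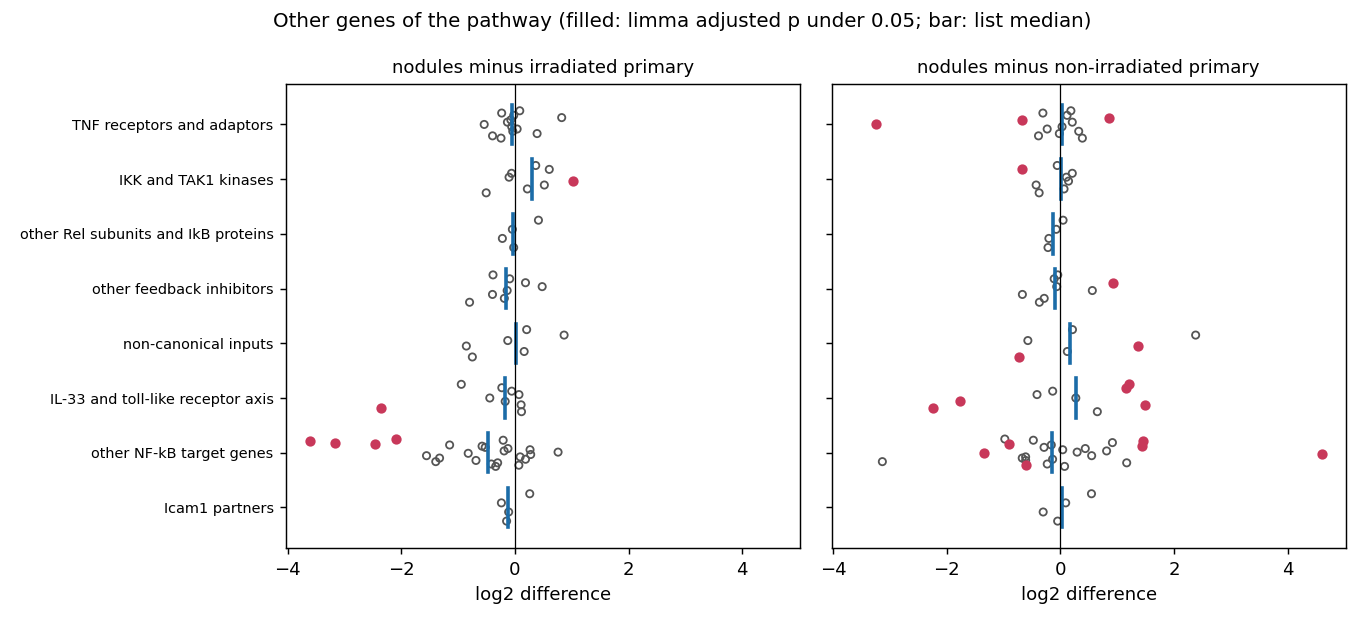
Log2 difference of the lung nodules from the irradiated primary (left) and the non-irradiated primary (right) for the tested genes of 8 pathway lists, 1 point a gene, filled where limma's adjusted p was under 0.05, with a bar at each list's median. Most points lie near 0, and the filled points on the left are 4 target genes and Tlr3 below 0 and Tab1 above it.

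The named genes whose profile over the 5 arrays was nearest, after centring each gene on its mean, were found by root mean square distance for the members that spanned at least 1 log2 unit. For Icam1 they were Meltf (0.16), Kcnk6 (0.17) and Sting1 (0.19), and the nearest other member lay at 1.25. For Il33 they were Plekhd1 (0.12), Penk (0.18) and Asgr2 (0.20), for Tnf they were Unc13c (0.09), Cd80 (0.22) and Tmem40 (0.25), and Tnf and Il33 lay 0.36 from each other. For Birc3 they were Rbm48, Zmiz2 and Ublcp1 at 0.03 to 0.04. With 5 arrays and 11104 named features such neighbours are a description of these arrays.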

How the data were processed

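Arrays of 3 lung nodules, 1 irradiated and 1 non-irradiated primary tumour were analysed from the deposited scanner files. Spot intensity, as deposited, had been corrected by Agilent Feature Extraction 11.0 for background array by array, per the file headers and the submitters' processing notes; RNA was prepared with RNeasy and the Quick Amp kit, per the labels. Flags of 0 or 1 for each spot, an other kind of deposited value, come from that software too. The deposited log2 matrix of 18502 probes served as an alternative. How it was normalised is not given in the sources used here, but its sorted columns differ by at most 0.000749, as after quantile normalisation. Quantile normalisation was itself among the alternatives, so these settings are alike in kind.

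Outlier spots (0.603 to 0.865% of gene spots) were left out, none was saturated, and 69.8 to 73.5% were well above background. The log2 signals of a probe's spots were averaged and the array's 75th percentile subtracted. Probes were named through RefSeq accessions (18354 of 30363). A probe counted as bright on an array where more than 0.5 of its spots were well above background, and it was tested if bright on every array of 1 group or more, keeping the brightest probe per gene. This left 18913 features. Limma 3.58.1 in R 4.3.3 fitted 3 group means with an intensity-trended eBayes and Benjamini-Hochberg adjustment over all features (threshold 0.05). The residual spread has 2 degrees of freedom, from the nodules. The fit was tested on simulated data. Primaries were compared by log2 differences, called at 2-fold or more. Where a probe was not well above background and lay below the array's lowest well-above-background level, its level was raised to that value. The fold is then given as a lower bound. Cd83 and Ltb in the non-irradiated primary lay above that value, so their folds are plain ratios to a dim signal. Such folds also depend on the background correction. The planned normexp correction used median spot signals. Named genes are all members and, of each list, those called or past 2-fold, at most 6 per list and comparison. Members, lists and tests were chosen with earlier results of these data known. The promoter motif was shortened after longer forms had been searched. Alternatives were another scaling, background correction, filter, probe rule, variance model, the deposited matrix and leaving out each nodule.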

Additional observations from a re-analysis of the deposited data

How the results depend on the processing

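No member changed direction in the nodule comparisons under 8 processing settings or with a nodule left out, or between the primaries under 7 settings. Each member had 1 probe, bright on every array, so another filter, probe rule or variance model could not move its log2 difference. For direction, only the other settings were a check. Against the irradiated primary limma called 704 features, 438 with scaling to the array median and 399 without an intensity trend, and 0 to 3187 with a nodule left out. The 0 came without nodule 2, where 2690 had an unadjusted p under 0.05 and the smallest adjusted p was 0.0513. Members called there numbered 1, and 0 to 3 with a nodule left out. Against the non-irradiated primary the 3512 calls became 0 to 6406 with a nodule left out (4987 at an unadjusted p under 0.05 without nodule 2), and the 2 members called became 1 without an intensity trend and 0 to 5 with a nodule left out. Between the primaries 3035 features were at least 2-fold apart, and 1495 with normexp, under which Birc3 (-0.99) fell just short of 2-fold. With 2 nodules left, 1 residual degree of freedom remains, and the cause of the changes was not tested. In 3 cases a named gene of the lists reversed: Ripk1 against the irradiated primary, at 0.020 with scaling to the array median, and Otud7b with normexp, at -0.0024 against the irradiated and -0.10 against the non-irradiated primary. Leaving out a primary was not possible, since each is 1 array. No paired analysis was possible because the labels do not say which samples came from the same mouse, and each primary has 1 array. Signal over background limits Tnf in the non-irradiated primary.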
